A study of Mus musculus with 22 samples.

Results

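The genes described here are 10 components of extracellular nucleotide signalling. They were taken by symbol from the 23453 gene symbols of the count table, and all 10 had at least 1 read. They comprise 6 receptors for nucleotides (P2ry1, P2ry2, P2ry6, P2ry12, P2rx4 and P2rx7), 2 receptors for adenosine (Adora1 and Adora2b) and 2 enzymes on the outer cell surface (Nt5e and Entpd2). RNA was measured in 22 single astrocytes grown from the cortex of newborn C57BL/6 mice, each taken by micropipette after its calcium signal during exposure to ethanol (EtOH) had been recorded with the dye Fluo-4. There were 6 S-type cells (slow rise and slow decay), 6 T-type cells (transient rise), 5 M-type cells (mixed pattern) and 5 cells without a response (NR). No genetic change is named for any cell. All cells came from serum-starved cultures that had been shaken and given cytosine arabinoside against other cell types, and were imaged with EtOH. The calcium signal was scaled to the one that 100 µM ATP, a ligand of several of these receptors, raised at the end of an experiment. Whether a collected cell had received ATP before it was taken is not given in the sources used here.

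ATP and UTP released from cells act on G protein-coupled P2Y receptors and on P2X receptors, which are cation channels opened by ATP. Surface enzymes then shorten ATP step by step to ADP, AMP and adenosine, and adenosine acts on its own receptors. In astrocytes, Gq-coupled P2Y receptors are a well-known route to calcium release from the endoplasmic reticulum through phospholipase C and inositol trisphosphate, and ATP passing between astrocytes carries calcium waves.

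A count is the number of exonic reads that the authors assigned to a gene, without molecular identifiers. Totals per cell ran from 2937786 to 22131076 reads, and the 10 members together took 51880 reads. A normalized count is the count divided by the size factor of the cell, and the level of a type is the mean over its cells, given with the SD over cells. The cells are numbered within a type in the order of their deposition. The labels name neither the animal nor the culture of a cell, so each type was taken as a single sample, and the types were compared by their values alone, with no test. Intervals at 95% are exact for the split of the pooled reads between 2 types and were then moved to the ratio of levels. They cover counting error of reads only, and neither amplification nor the spread over cells. T-type libraries stood apart in depth, since T-type cells 3 and 4 had 2937786 and 6568630 reads and all other cells at least 12229280. The size factors of T-type cells 2 and 3 were 0.276 and 0.183, against 0.548 to 2.31 in all other cells, so that 1 read weighs more in them. No pair of cells had identical counts.

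The members split into a well-read and a barely read set. Adora1 had 22794 reads and was found in 22 of 22 cells, P2ry2 had 11310 reads in 20 cells, and P2ry1 had 9366 reads in 19 cells. These 3 genes took 83.8% of the member reads. P2rx7 followed with 5696 reads in 17 cells and P2rx4 with 2160 reads in 18 cells. Entpd2 had 534 reads in 4 cells, and Nt5e, P2ry6, P2ry12 and Adora2b had 9, 8, 2 and 1 reads. Counted over pairs of a member and a cell, a read was present in 26 of 50 pairs for NR and 25 of 50 for M-type, and in 30 of 60 pairs for S-type and 28 of 60 for T-type. Per 1000 exon bases, the level over all cells fell in the order Adora1 (144), P2ry2 (89.1), P2ry1 (83.5), P2rx7 (46.7), P2rx4 (12.9) and Entpd2 (8.16). The SD over cells exceeded the level for each of these 6 genes, so neighbours in that order did not differ beyond their spread.

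**Figure D1:**
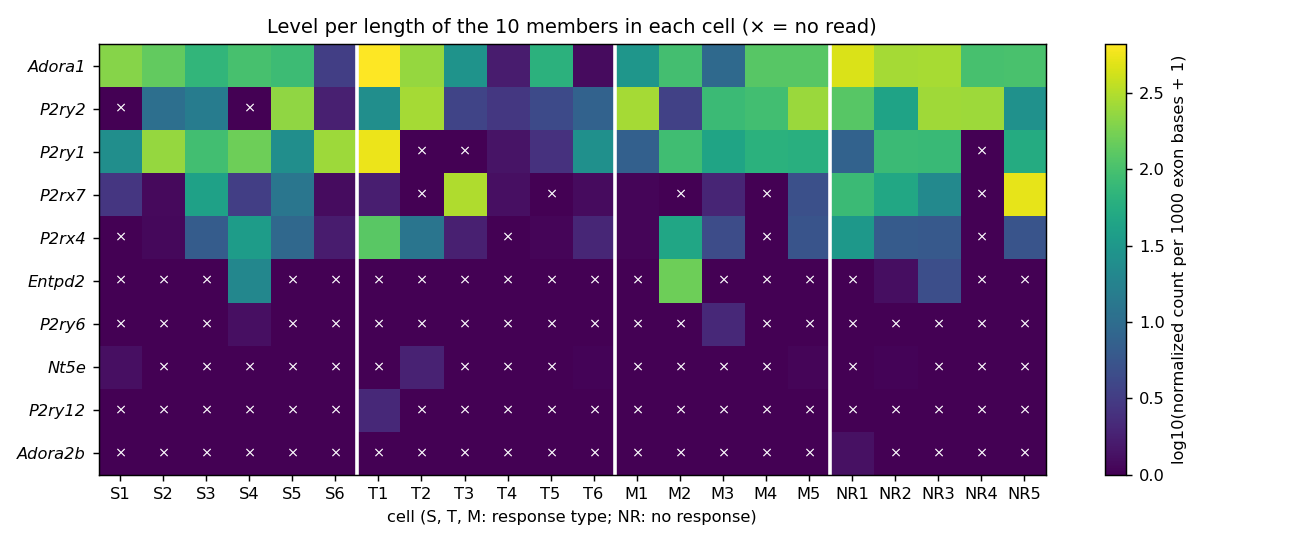
Each column is 1 cell and each row 1 member, with colour giving log10 of the normalized count per 1000 exon bases plus 1 and a cross marking a cell without a read. Adora1 has no cross, and the last 5 rows are almost all crosses. P2ry1 and P2ry2 differ in their brightest cells, though 15 of 22 cells had at least 10 reads of both.

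The member with the highest level per length differed between types. In S-type it was P2ry1 at 130.5 normalized counts per 1000 exon bases, ahead of Adora1 at 99.4. In T-type and NR it was Adora1 at 163.8 and 241.7, and in M-type it was P2ry2 at 139.5. Cell by cell, P2ry1 was the highest member in 4 of 6 S-type cells, P2ry2 in 3 of 5 M-type cells and Adora1 in 3 of 5 NR cells, whereas the 6 T-type cells were led by 4 different members.

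P2ry1 encodes the P2Y1 receptor, a Gq-coupled receptor for ADP. It lies on the plus strand at chr3:61002795-61008982 (GRCm38), with 2 exons of 4291 bases in all, of which 992 bases are shared with the antisense gene model Gm37035. P2ry12, which encodes the Gi-coupled ADP receptor that marks resting microglia, lies on the same chromosome at chr3:59216272-59262871 on the minus strand. These 2 ADP receptor genes had 9366 and 2 reads. Their promoter windows from RefSeq (GRCm38.p6, 250 bases before to 50 after the start) are shown to let the sequences be compared, with each CG dinucleotide in capitals, at chr3:61002535-61002834 (plus strand) and chr3:59262936-59263235 (minus strand).
P2ry1: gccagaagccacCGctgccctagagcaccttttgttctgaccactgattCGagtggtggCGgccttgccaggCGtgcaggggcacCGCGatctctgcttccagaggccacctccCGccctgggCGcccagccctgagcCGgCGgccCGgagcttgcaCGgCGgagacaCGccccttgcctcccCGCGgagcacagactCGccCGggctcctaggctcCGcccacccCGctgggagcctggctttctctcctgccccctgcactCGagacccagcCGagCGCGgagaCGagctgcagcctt
P2ry12: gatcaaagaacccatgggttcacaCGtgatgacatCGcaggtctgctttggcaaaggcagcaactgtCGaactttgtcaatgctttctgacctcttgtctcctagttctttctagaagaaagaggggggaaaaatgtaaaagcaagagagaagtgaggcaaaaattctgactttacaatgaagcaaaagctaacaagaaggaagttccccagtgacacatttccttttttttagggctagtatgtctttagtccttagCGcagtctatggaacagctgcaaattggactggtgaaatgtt
The P2ry1 window held 25 CG dinucleotides and the P2ry12 window 4, where 18.4% and 68.6% of 32851 RefSeq promoter windows of the same length held at least as many and the median was 7. CG is its own reverse complement, so the count is the same on both strands. Of the 10 members, 9 had a window. P2ry2 (28 and 30), Adora1 (26 and 24) and P2rx4 (18) had CG-rich windows and many reads, but Adora2b (27) and Nt5e (23) had CG-rich windows with 1 and 9 reads, and P2rx7 (8 and 4) had few CG and 5696 reads. The CG count therefore did not order the members by their reads.

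P2ry1 was read in every S-type cell. The normalized counts in S-type cells 1 to 6 were 101, 1012, 393.5, 674.5, 101 and 1076, a level of 560 ± 432 (SD over 6 cells). The NR cells had 29.1, 350.5, 342, 0 and 228, a level of 190 ± 168 (SD over 5 cells). S-type was 2.95-fold higher than NR (log2 ratio 1.56, interval 1.47 to 1.65), and the S-type value was the larger in 80% of the pairs of an S-type and an NR cell, but the 2 types overlapped. Leaving out each cell in turn kept the log2 ratio between 1.24 and 1.90. Without NR cells 1, 2 and 4, which carried the most microglia markers, it was 0.97. Their removal also moved the median log2 ratio over all genes compared, from 0.03 to 0.49.

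The M-type cells had 26.9, 383, 187.1, 267 and 256 normalized counts of P2ry1, a level of 224 ± 131 (SD over 5 cells), and lay within the range of NR apart from 1 cell. The T-type cells had 2338, 0, 0, 1.82, 6.48 and 108, a level of 409 ± 946 (SD over 6 cells). T-type cell 1 therefore gave 95.3% of the T-type level, and the other 5 T-type cells averaged 23.2. The T-type level was 2.15-fold above NR (log2 ratio 1.11), and without T-type cell 1 the log2 ratio was -3.04.

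P2ry2 encodes the P2Y2 receptor, the Gq-coupled receptor for ATP and UTP. It lies on the minus strand at chr7:100996568-101012866, next to P2ry6. The NR cells had 479, 165.1, 1030, 989.8 and 100.1 normalized counts, a level of 553 ± 441 (SD over 5 cells). The M-type cells had 1082, 9.80, 321, 358 and 968, a level of 548 ± 458 (SD over 5 cells), and the log2 ratio to NR was -0.01 (interval -0.07 to 0.04). All 5 NR cells and 4 of 5 M-type cells were above 100 normalized counts.

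S-type and T-type cells were mostly far lower in P2ry2. The S-type cells had 0, 37.9, 56.0, 0, 876 and 2.97 normalized counts, a level of 162.2 ± 351 (SD over 6 cells), of which S-type cell 5 gave 90.0%. The T-type cells had 94.3, 1070, 10.9, 7.30, 13.0 and 26.3, a level of 204 ± 426 (SD over 6 cells), of which T-type cell 2 gave 87.6%. The level was 3.41-fold lower in S-type than in NR (log2 ratio -1.77, interval -1.86 to -1.68) and 2.71-fold lower in T-type (log2 ratio -1.44, interval -1.59 to -1.30). Leaving out each cell in turn gave -4.83 to -1.42 for S-type and -4.19 to -1.09 for T-type, the lowest values without S-type cell 5 and without T-type cell 2. The T-type value depended on the scaling, with -3.06 for CPM of pooled reads, -3.18 for mean CPM and -4.61 for the median over cells. An S-type cell exceeded an NR cell in 10% of the pairs and a T-type cell in 16.7%.

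The cells differed in the balance of reads between these Gq-coupled receptors. At least 10 reads of P2ry1 or P2ry2 were present in 20 of 22 cells and of both in 15 cells. Of the reads of the pair, P2ry2 took 0% to 12.5% in 5 of 6 S-type cells and 89.6% in S-type cell 5. It took 97.6%, 2.50%, 63.2%, 57.3% and 79.1% in M-type cells 1 to 5, and 94.3%, 32.0%, 75.0%, 100% and 30.5% in NR cells 1 to 5. The summed normalized count of the pair was 9.12 to 19.4 in T-type cells 3, 4 and 5 and at least 101 in every other cell. T-type cells 3 and 4 were the shallowest libraries, while T-type cell 5 had 19279519 reads in all and 30 reads of the pair.

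**Figure D2:**
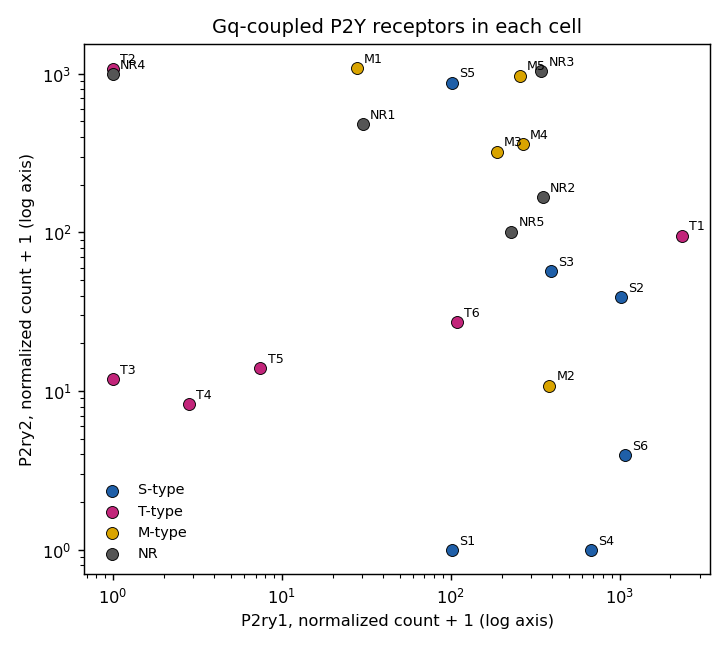
Each point is 1 cell, with the normalized count plus 1 of P2ry1 on the horizontal and of P2ry2 on the vertical log axis, and the colour gives the response type. S-type cells 1, 2, 3, 4 and 6 sit low on the P2ry2 axis with at least 101 normalized counts of P2ry1, and T-type cells 3, 4 and 5 sit low on both.

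P2ry6, which encodes the UDP receptor P2Y6, had 1 read in S-type cell 4 and 7 reads in M-type cell 3, and none in T-type or NR. P2ry12 had 2 reads, both in T-type cell 1, a cell in which 12 of 13 microglia and macrophage markers had a read. With 1 to 7 reads, no fold between types is given for these genes. For ratios, a type with a count of 0 over all its cells was set to a floor of 3 reads over its summed size factors. This floor was 0.319 normalized counts (M-type), 0.397 (NR), 0.402 (S-type) or 0.622 (T-type). It is not an upper limit where size factors differ, as 3 reads of Nt5e in T-type gave a level of 1.32.

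P2rx4 and P2rx7 encode the ATP-gated channels P2X4 and P2X7, the latter known for opening at high ATP and for its role in inflammasome activation. The genes are neighbours on the plus strand of chromosome 5, with P2rx7 at chr5:122643911-122691432 and P2rx4 at chr5:122707544-122729738. At least 10 reads were present in 11 cells for P2rx7, in 13 for P2rx4 and in 9 for both.

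P2rx7 was the member with the widest differences between types. The NR cells had 487.5, 286, 121, 0 and 3068 normalized counts, so that 4 of 5 cells were above 100 and NR cell 5 gave 77.4% of the level of 792.5 ± 1285 (SD over 5 cells). The M-type cells had 0.63, 0, 5.63, 0 and 22.9, a level of 5.83 ± 9.83 (SD over 5 cells), and every M-type cell lay below the 4 NR cells with a read. The level was 136-fold lower in M-type than in NR (log2 ratio -7.09, interval -7.46 to -6.74), with -8.99 to -5.26 on leaving out each cell in turn. The one overlap between these types came from NR cell 4, which had no read in 18835038.

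The S-type cells had 10.7, 1.08, 236, 14.02, 70.6 and 1.48 normalized counts of P2rx7, a level of 55.7 ± 92.2 (SD over 6 cells). This was 14.2-fold lower than in NR (log2 ratio -3.83, interval -3.97 to -3.70), with -5.34 without S-type cell 3 and -2.01 without NR cell 5. The T-type cells had 4.22, 0, 1800, 1.82, 0 and 1.28. T-type cell 3, the shallowest library, held 330 of the 336 T-type reads and 99.6% of the level of 301 ± 734 (SD over 6 cells), and the mean of the other 5 cells was 1.47. The log2 ratio of T-type to S-type was 2.44, and without T-type cell 3 it was -5.25. The log2 ratio of T-type to NR was -1.40, with -9.08 without T-type cell 3 and 0.43 without NR cell 5. T-type cell 3 also had the highest summed CPM (counts per 1000000 reads) of oligodendrocyte lineage markers, 3329 against at most 2235 in the other cells, with 4 of 9 markers read. The part of this in the P2rx7 count of that library was not tested.

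P2rx4 had levels of 58.0 ± 95.8 (SD over 6 S-type cells), 75.3 ± 137.5 (SD over 5 M-type cells) and 63.9 ± 85.8 (SD over 5 NR cells). The log2 ratios to NR were -0.14 (interval -0.33 to 0.05) for S-type and 0.24 (interval 0.06 to 0.41) for M-type. Leaving out each cell in turn gave -1.67 to 1.15 and -2.17 to 1.53, so that no direction was fixed. Each level rested on 1 high cell, with 248 normalized counts in S-type cell 4, 320 in M-type cell 2 and 215 in NR cell 1. The T-type cells had 863, 79.8, 5.46, 0, 0.65 and 7.05, a level of 159 ± 346 (SD over 6 cells), 2.75-fold above S-type and 2.49-fold above NR. T-type cell 1 gave 90.3% of it, and without that cell the log2 ratios were -1.64 to S-type and -1.78 to NR.

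**Figure D3:**
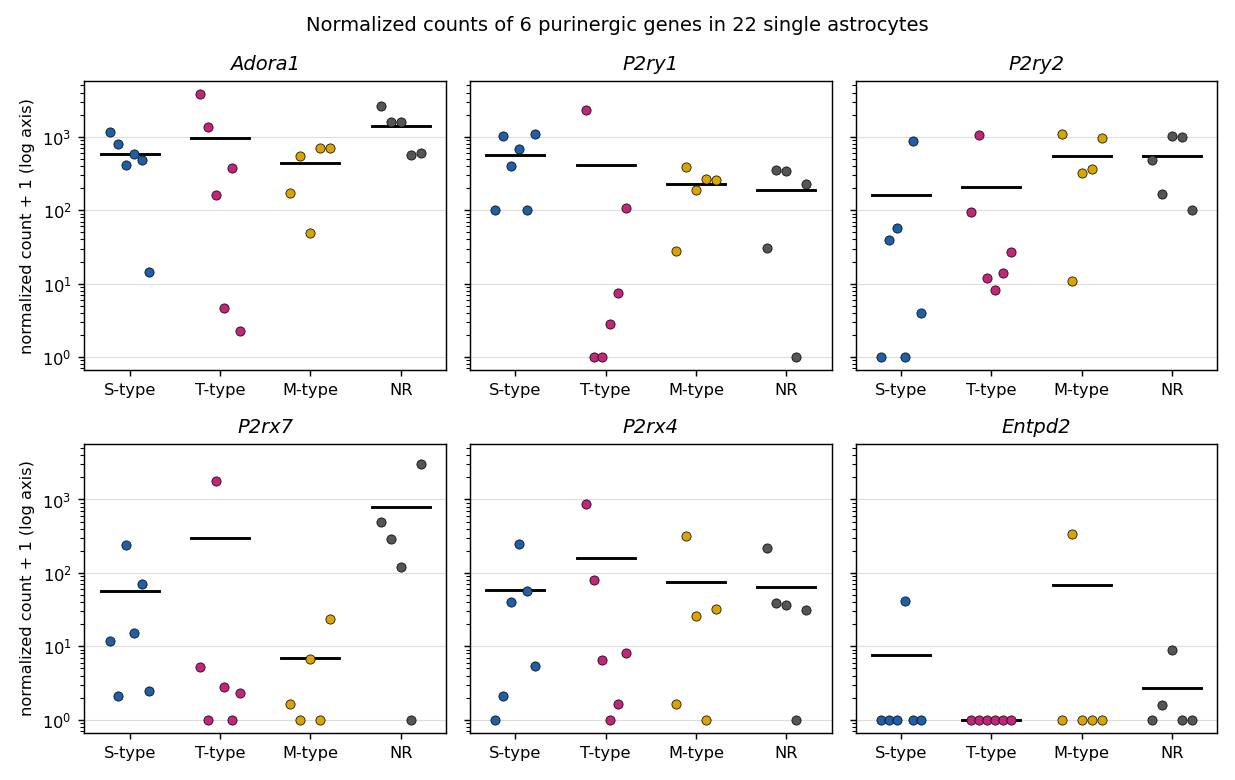
Each point is 1 cell, placed by response type, with the normalized count plus 1 on a log axis, and each horizontal line is the mean over the cells of the type plus 1. All types overlap in every panel, the 4 NR cells with P2rx7 reads lie above all M-type cells, and single T-type cells stand far above the rest of their type.

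Adora1 encodes the adenosine A1 receptor, a Gi-coupled receptor that lowers cyclic AMP and is known for damping transmitter release at synapses. It lies on the minus strand at chr1:134199223-134235431, and 1162 of its 5785 exon bases are shared with Mybph on the opposite strand, a gene that had 7 reads in 2 cells. The NR cells had 2656, 1575, 1605, 565 and 591.5 normalized counts, a level of 1398 ± 866 (SD over 5 cells). Each of the 5 NR cells was above 560. The M-type cells had 168, 544, 47.4, 705.5 and 700.7, a level of 433 ± 307 (SD over 5 cells). The S-type cells had 1176, 795.6, 410, 573, 483 and 13.4, a level of 575 ± 390 (SD over 6 cells).

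Adora1 was thus 3.23-fold lower in M-type than in NR (log2 ratio -1.69, interval -1.74 to -1.64) and 2.43-fold lower in S-type (log2 ratio -1.28, interval -1.33 to -1.23). Leaving out each cell in turn gave -1.94 to -1.32 for M-type and -1.62 to -0.91 for S-type, where the value without NR cell 1 fell short of 2-fold. An M-type cell exceeded an NR cell in 16% of the pairs and an S-type cell in 16.7%. The T-type cells spread most, with 3802, 1349, 158, 3.65, 371 and 1.28 normalized counts, a level of 948 ± 1487 (SD over 6 cells). T-type cell 1 gave 66.9% of this, and the log2 ratio to NR moved from -0.56 to -1.89 without it and to -1.32 with CPM of pooled reads. T-type cell 6 had 2 reads of Adora1 in a library of 17849353.

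Adora2b, which encodes the Gs-coupled A2B receptor, had 1 read, in NR cell 1. It lies on the plus strand at chr11:62248984-62266453. The reads of the 2 adenosine receptors among the members were thus almost wholly those of Adora1.

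Nt5e encodes CD73, the surface enzyme that makes adenosine from AMP. It lies on the plus strand at chr9:88327197-88372092. It had 9 reads in 5 cells, with 1 read for NR, 2 for M-type and 3 each for T-type and S-type, at or under the 3 reads taken as the floor, so no ratio is given. Entpd2 encodes an ecto-ATPase that turns ATP into ADP. It lies on the plus strand at chr2:25395874-25401321, and 612 of its 2128 exon bases are shared with Npdc1 on the same strand, which had 169 to 1477 reads in every cell, so the assignment of reads to Entpd2 is uncertain. Entpd2 had 476 reads in M-type cell 2, 46 in S-type cell 4, 11 in NR cell 3, 1 in NR cell 2 and none in the other 18 cells. Its level was 66.7 in M-type, 6.72 in S-type and 1.70 in NR, and T-type had no read. The M-type level was 107-fold above the floor set for T-type, which is not an upper limit of the T-type level. In M-type cell 2 it had 333 normalized counts and was the highest of the members per length. It was read in fewer than 5 cells and was left out of the counts between types.

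The comparisons between types address whether gene expression differs between astrocytes with different calcium responses to EtOH. Of the 10 members, 6 were read in 5 or more cells, and 5 of these had more than 3 reads in a type and so a ratio. In T-type versus S-type, 2 members were at least 2-fold higher (P2rx4 and P2rx7) and 0 lower, where 25.3% of the 12719 genes compared were higher and 32% lower. In T-type versus NR, 2 were higher (P2ry1 and P2rx4) and 2 lower (P2ry2 and P2rx7), where 27.9% and 32.2% of all genes were. For S-type against NR, 1 was higher (P2ry1) and 3 lower (P2ry2, P2rx7 and Adora1), where 25% and 22.3% of all genes were. In M-type versus NR, 0 were higher and 2 lower (P2rx7 and Adora1), where 19.6% and 27.9% of all genes were. The contrasts with NR share the same 5 NR cells. The T-type counts rested on single cells and on the scaling. With CPM of pooled reads they were 0 higher and 1 lower against S-type and 0 higher and 3 lower against NR, and without T-type cell 1 they were 1 higher and 2 lower against S-type and 0 higher and 5 lower against NR.

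The median log2 ratio of these 5 members was 0.72 in T-type versus S-type, -0.56 in T-type versus NR, -1.28 in S-type versus NR and -0.01 in M-type versus NR. Over all genes compared it was -0.07, -0.05, 0.03 and -0.20. No member had cells of 2 types that did not overlap in any of the 4 contrasts. Of all genes, 0.771% had such cells in T-type versus S-type, 0.991% in T-type versus NR, 0.409% in S-type versus NR and 0.598% in M-type versus NR. With shares this small, no such member is expected among so few, so their absence does not set the members apart.

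**Figure D4:**
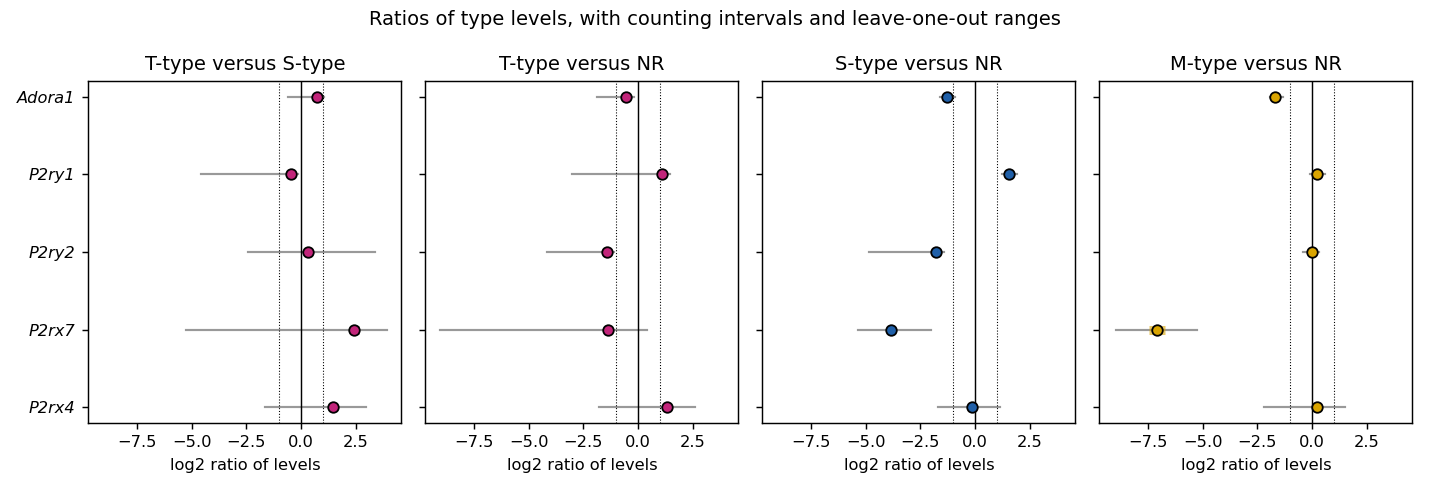
Points give the log2 ratio of type levels, thick bars the 95% counting interval (mostly hidden by the point), grey lines the range on leaving out each cell in turn, and dotted lines 2-fold. The grey lines cross 0 for P2rx4 and P2rx7 in both T-type contrasts, for P2ry2 and Adora1 in T-type versus S-type and for P2ry1 in T-type versus NR. They also cross 0 for P2rx4 in S-type versus NR and for P2ry1, P2ry2 and P2rx4 in M-type versus NR. Those of P2ry1, P2ry2, P2rx7 and Adora1 in S-type versus NR stay on 1 side of it.

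Of 13 astrocyte markers, 12 or 13 had reads in each cell and 13 had reads in each type. Their summed CPM had a median of 13712 for NR, 15739 for M-type, 15305 for T-type and 9922 for S-type. Vim had the most reads of the list, 3276534, and single markers went both ways. The log2 ratio of T-type to NR was -5.12 for S100b, -5.11 for Slc1a2, -3.59 for Gfap, -2.21 for Aldoc and -2.07 for Ndrg2. It was 2.06 for Sox9, 1.30 for Vim and 1.125 for Glul, and within 2-fold for the others. Several of the purinergic receptors are also known from microglia, and reads of microglia and macrophage markers differed between the types. Of 13 such markers, NR cells together had reads of 13, M-type and T-type cells of 12 each and S-type cells of 6. Csf1r, C1qa, C1qc, Aif1, Trem2, Tmem119 and Laptm5 were at 0 in S-type, Tmem119 in T-type and Csf1r in M-type. The summed CPM of the list ranged from 0.735 to 149 for NR, from 0.181 to 3.73 for M-type, from 0 to 62.4 for T-type and from 0 to 8.67 for S-type. NR cell 5, which had the most P2rx7 reads, had 1 of these markers and the lowest sum of NR. NR cell 4, with 10 markers and the highest sum, had no read of P2rx7, P2rx4 or P2ry1. By contrast, NR cells 1 and 2, with 11 and 13 markers and sums of 71.3 and 108, had 487.5 and 286 normalized counts of P2rx7. The part of microglia RNA in the member counts was not tested. Without NR cells 1, 2 and 4, the log2 ratio of P2rx7 to NR was -4.84 in S-type and -8.10 in M-type. That of P2ry2 was -1.80 in S-type and -0.04 in M-type, and that of Adora1 was -0.93 in S-type and -1.34 in M-type. The median over all genes compared moved too, from 0.03 to 0.49 in S-type and from -0.20 to 0.20 in M-type.

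Markers of further cell types were uneven, with some at 0 and others well read in each list but that of neurons. All 6 neuron markers had a read. In the oligodendrocyte lineage list, Sox10 was at 0 in every cell, while Olig1 had 203458 reads in 22 cells and Olig2 20899 reads in 21 cells. In the endothelium list, Cdh5 and Cldn5 were at 0 and Kdr had 4486 reads in 13 cells. In the mural cell and fibroblast list, Rgs5 was at 0, while Acta2 had 539975 reads in 22 cells, the most of the list, and Pdgfrb 4518 reads in 15 cells. The summed CPM of 7 mural cell and fibroblast markers was highest in S-type cell 5 (7410, with 4 of the 7 read), the S-type cell with high P2ry2. Within T-type it was highest in T-type cell 1 (4710, with 2 of the 7 read), the cell with high P2ry1, P2rx4 and Adora1. T-type cell 5 had a similar sum (4245) with 6.48 normalized counts of P2ry1, 0.65 of P2rx4 and 371 of Adora1. The summed CPM of 6 neuron markers was 513 in M-type cell 2, the cell with most Entpd2 reads, and the highest of M-type. S-type cells 1 and 2 had 546.5 and 2048 without a read of Entpd2, and S-type cell 4, with 46 reads of Entpd2, had 58.5. The part of these in the member counts was not tested.

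Of 11 other P2 and adenosine receptors, 10 had a read and 3 passed the filter of 5 cells. The most read per length were P2rx6, P2rx5 and P2rx3, which encode further P2X subunits, at 18.6, 15.8 and 3.31 normalized counts per 1000 exon bases over all cells, which put the first 2 above P2rx4 and all below Adora1, P2ry2 and P2ry1. P2rx6 was read in 4 of 6 S-type cells and 1 of 6 T-type cells. P2rx5 was read in 4 of 5 M-type cells, and S-type cell 6 gave 99.9% of its S-type level. Against NR, 1 of the 3 that passed was past 2-fold upward and 1 downward for T-type, with 2 and 0 for S-type and 0 and 2 for M-type. T-type against S-type gave 1 upward and 1 downward. Of all genes, 19.6% to 27.9% were past 2-fold upward and 22.3% to 32.2% downward in these contrasts, and 3 genes are too few to be set against such shares.

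Of 16 other ectoenzymes and related nucleotidases, 14 had a read and 10 passed the filter. Entpd5, which encodes a nucleoside diphosphatase of the endoplasmic reticulum and secretory path, was read in 21 cells, with median normalized counts of 1329 (NR), 1139 (M-type), 731 (T-type) and 831 (S-type), and T-type cell 2 reached 84250. Cd38, an enzyme that breaks down NAD, was read in 4 of 5 NR cells, and NR cell 5, the cell with most P2rx7, held 78.8% of its NR level. Enpp2, which encodes autotaxin, was read in 7 cells. Against NR, 3 of the 10 were past 2-fold upward and 6 downward for T-type, with 2 and 6 for S-type and 3 and 4 for M-type. T-type against S-type gave 3 upward and 4 downward. The shares over all genes compared were 27.9% and 32.2% for T-type, 25% and 22.3% for S-type and 19.6% and 27.9% for M-type against NR, and 25.3% and 32% for T-type against S-type. The median log2 ratio was taken over those of the 10 with a ratio, so without Alpl for T-type and Ada for S-type against NR, and without Acpp for T-type against S-type. It was -3.08, -1.94 and -0.66 against NR in that order and -0.98 for T-type against S-type, beside -0.05, 0.03, -0.20 and -0.07 over all genes.

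Genes of purine handling inside the cell were read in all types. Pnp (purine nucleoside phosphorylase) and Adk (adenosine kinase, which returns adenosine to AMP) were read in 22 of 22 cells. The level of Adk was 250.2 normalized counts for NR, 990.4 for M-type, 700 for T-type and 705.6 for S-type, and its log2 ratio to NR was 1.985 for M-type, 1.484 for T-type and 1.496 for S-type. Slc29a3, an equilibrative nucleoside transporter, was read in 20 cells, and T-type cell 2 gave 99.3% of its T-type level. Of the 10 genes of nucleoside transport and purine handling, 6 passed the filter. Of these, 3, 2 and 2 were at least 2-fold higher and 0 lower in T-type, S-type and M-type than in NR, and 3 higher and 1 lower in T-type versus S-type. Over all genes 27.9%, 25% and 19.6% were higher and 32.2%, 22.3% and 27.9% lower against NR. In T-type versus S-type, 25.3% of all genes were higher and 32% lower. The median log2 ratio of the 6 was 1.21, 0.34 and 0.50 against NR and 0.63 for T-type against S-type. Over all genes it was -0.05, 0.03, -0.20 and -0.07.

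Of 7 genes linked to nucleotide release, 4 passed the filter. Gja1 (connexin 43, also an astrocyte marker) and Lrrc8a (a subunit of the volume-regulated anion channel) were read in 22 of 22 cells. Panx1, which encodes the pannexin 1 channel, was read in 4 of 5 M-type, 4 of 5 NR and 3 of 6 S-type cells and in 1 of 6 T-type cells. Of the 4, 0 were at least 2-fold higher and 2 lower in T-type versus S-type, and 1 was higher and 1 lower in each contrast with NR. Of all genes, 25.3% were higher and 32% lower in T-type versus S-type. Against NR, 19.6% to 27.9% were higher and 22.3% to 32.2% lower. The 4 genes are too few to be set against such shares.

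The genes whose normalized counts ranked the 22 cells most like each member were sought among the 10493 genes read in 11 or more cells. For P2ry1 the most alike were Trappc8 (Spearman's rho 0.86) and Ermp1 (0.84), and for P2ry2 Bcl2l1 (0.71) and Zfp677 (0.68). For P2rx4 they were Rbm24 (0.75) and Fgl2 (0.70), for P2rx7 Ankrd46 (0.80) and 2610507B11Rik (0.80), and for Adora1 Htatip2 (0.68) and Crcp (0.68). These values describe 22 cells that share response types and differ in depth, and each is the highest of 10493.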

How the data were processed

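Per the study's methods, RNA of 22 single cells went through 2 rounds of antisense amplification. The authors made stranded TruSeq libraries, aligned trimmed reads to GRCm38 (mm10) with STAR and counted uniquely aligned exonic reads per gene with VERSE, a modified HTSeq. They deposited these raw counts, with no normalization and 1 column per cell. Versions, and whether counting used the strand, are not given in the sources used here, so reads of overlapping and antisense genes cannot be told apart. The depth was 2937786 to 22131076 reads per cell.

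Each count was scaled by the size factor of its cell, a median of ratios over 3670 genes found in all cells. Averaging these normalized counts over the cells gave the level of a type. A type without reads was set to 3 reads over the type. The 12719 genes read in 5 or more cells were compared, and a gene counted as higher or lower past 2-fold with more than 3 reads in either type. No test between types was made, because a type is 1 sample. Ratio intervals came from the exact binomial split of reads (SciPy 1.17.1). Positions and exon lengths came from GENCODE vM21, promoters from RefSeq. Python 3.11.15, NumPy 2.4.6, pandas 2.3.3 and matplotlib 3.10.9 were used. The steps were checked on simulated data.

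All 10 members are named. Of each related list at most the 3 genes with the highest level per length are named, and 2 like genes per member. The members and lists were chosen with earlier results of these data known. Alternatives were CPM of pooled reads, mean CPM, TMM factors (edgeR 4.0.16, R 4.3.3), cells thinned to the smallest library, a pseudocount of 1, leaving off the filter, a minimum mean level of 10, the median over cells, at least 5 reads for detection, and leaving out each cell. Leaving out the 2 shallowest T-type cells, and the 3 NR cells with most microglia markers, was added after the data were seen. A marker chosen for the microglia list is not reported here and was left out of it. The calcium recordings were not used here.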

Additional observations from a re-analysis of the deposited data

Results flagged for a closer look

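Normalized counts of each member with more than 3 reads in a type were screened within the type by Dixon's gap ratio, the gap of the highest or lowest cell to its neighbour over the whole range. Of 24 such sets 16 had a cell beyond the 95% critical value, and in all 16 it was the highest cell. Chance flags about 1 in 20 groups of normally distributed values, a rate that does not hold for counts as skewed as these, so the number of such sets is a description. In 3 of them, those with a ratio of 1, a single cell held all reads and the ratio was fixed by that. In T-type, cell 1 stood apart in P2ry1 (0.954), P2rx4 (0.908) and Adora1 (0.645), cell 2 in P2ry2 (0.918) and cell 3 in P2rx7 (0.998). In S-type, cell 5 stood apart in P2ry2 (0.936), cell 4 in P2rx4 (0.775) and Entpd2 (1), and cell 3 in P2rx7 (0.705). In M-type, cell 2 stood apart in P2rx4 (0.903) and Entpd2 (1), cell 3 in P2ry6 (1) and cell 5 in P2rx7 (0.754). In NR, cell 1 stood apart in P2rx4 (0.823), cell 5 in P2rx7 (0.841) and cell 3 in Entpd2 (0.928). P2ry1 and Adora1 had no such cell in S-type, M-type or NR, and P2ry2 had none in M-type or NR.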

How the results depend on the processing

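No paired analysis was possible because the cell numbers only name cells and no comparison between types comes from a test. In T-type versus S-type, the count of members at least 2-fold higher (2) was 0 with pooled CPM, 1 with mean CPM and 0 with the median over cells, and 1 to 3 on leaving out each cell. The count lower (0) was 1 with pooled CPM, 2 with mean CPM, 1 without a filter, 1 at a mean level of at least 10, 3 with the median, 1 without the 2 shallowest T-type cells, and 0 to 2 on leaving out each cell. In T-type versus NR, the count higher (2) was 0 with pooled CPM, mean CPM or the median, 1 without the 3 NR cells with most microglia markers, and 0 to 2 on leaving out each cell. The count lower (2) was 5 with the median, 1 without the 2 shallowest T-type cells, and 1 to 5 on leaving out each cell. In S-type versus NR, the count higher (1) was 2 without a filter or at a mean level of at least 10 (both admit Entpd2), 0 without the 3 NR cells, and 1 to 2 on leaving out each cell. In M-type versus NR, the count higher (0) was 1 without a filter, at a mean level of at least 10 or without the 3 NR cells, and 0 to 1 on leaving out each cell. With at least 5 reads, 15 pairs of a member and a T-type cell counted as read. The cells that moved a count by over 1.5 times were T-type cells 1, 2 and 3 and NR cells 1, 4 and 5. Among the ratios past 2-fold, directions turned only in T-type contrasts, and the cause was not tested. P2rx4 versus S-type was -1.80 on the log2 scale with the median and -1.64 to 2.99 on leaving out each cell. P2rx7 versus S-type was -0.37 with pooled CPM, -2.99 with the median, -5.34 without the 2 shallowest cells and -5.25 to 3.94 on leaving out each cell. Versus NR, P2ry1 was -5.78 with the median and -3.04 to 1.45 on leaving out each cell, P2rx4 -2.52 and -1.78 to 2.61, and P2rx7 -9.08 to 0.43. Pooled and mean CPM moved the median of all genes in T-type versus S-type from -0.07 to -0.55 and -0.44, and in T-type versus NR from -0.05 to -0.52 and -0.45. Leaving out the 3 NR cells moved it versus NR to 0.36 in T-type, from 0.03 to 0.49 in S-type and from -0.20 to 0.20 in M-type. The members with under 10 reads had too few for a difference to be detectable, and the cause of their low counts was not tested.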
